A study of Homo sapiens with 6 samples.

Results

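The semaphorins, plexins, ephrins and related axon guidance genes of SU-CCS-1 cells were 38 protein-coding genes of the 18118 genes counted. SU-CCS-1 is an established human clear cell sarcoma cell line that carries EWSR1::ATF1 (EA1), the fusion oncogene of this tumor. Members were chosen by gene symbol, as all counted SEMA, PLXN, EFNA, EFNB, ROBO, SLIT, NTN and UNC5 genes and NRP2. No measured value entered that choice, but the family was put forward with results of these libraries known, in which SEMA5A and SEMA4C had already stood out. Counts of members that differed are therefore descriptions and support nothing about the family as a whole.

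Polyadenylated RNA was sequenced from 6 libraries of SU-CCS-1 cells, all transfected with an siRNA by lipofection. Of these, 2 libraries received a negative control siRNA, 2 received EA1 siRNA 1 and 2 received EA1 siRNA 2, so that the comparison asks how guidance genes respond to less fusion transcript. The study's methods describe 1 siRNA against EA1, whereas the sample labels list a pair of them. The cells are 1 line, and nothing states that replicates were separate cultures, so p values measure the spread between these libraries, which may be technical.

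Semaphorins are secreted or membrane-bound ligands that steer growing axons and migrating cells, and plexins are their signalling receptors, with neuropilins as co-receptors for the secreted class. Ephrins are membrane-bound ligands of the Eph receptor tyrosine kinases, slits are secreted ligands of the roundabout (ROBO) receptors, and netrins act through DCC and UNC5 receptors. Many of these genes guide neural crest cells, the embryonic source of melanocytes, and clear cell sarcoma shares the melanocytic expression program.

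Library totals ranged from 5942808 to 7599305 counts, at which a floor of 3 counts corresponds to 0.385 to 0.533 CPM (counts scaled to the library total after TMM normalization), covering counting error only. Counts of ATF1, whose 3′ portion the fusion carries, were 549 and 680 in control, 149 and 123 counts with EA1 siRNA 1, and 122 and 159 counts with EA1 siRNA 2, and these gene-level counts do not separate the fusion from native ATF1. EWSR1, the other fusion partner, was at 198 and 233 CPM in control, 195 and 203 CPM with EA1 siRNA 1, and 221 and 198 CPM with EA1 siRNA 2. Of 6 lineage markers (PMEL, MLANA, MITF, SOX10, S100B and ERBB3), all were counted, and their summed level was 2850.4 to 3018 CPM in control and 6778 to 10369.7 CPM after knockdown. PMEL held most of that sum, at 1397 and 1043 CPM in control and 4241 to 7768 CPM after knockdown. SOX10 was at 786 and 868 CPM in control and 847 to 979 CPM after knockdown, and ERBB3 at 170 and 229.9 CPM in control, 586 and 697 CPM with EA1 siRNA 1, and 235 and 286 CPM with EA1 siRNA 2. MLANA was near 0 in control, at 0.599 and 0 CPM, and stayed low after knockdown, at 1.81 to 4.27 CPM. The higher sum of the lineage markers moved with every difference described here between control and knockdown, and its part in them was not tested. Of 3 endothelial markers and 3 leukocyte markers, 1 each was counted, CDH5 at 0.165 to 1.26 CPM and CD68 at 0 to 0.898 CPM over the 6 libraries, and of 3 epithelial and 3 skeletal muscle markers none was. Of 3 neuronal markers MAP2 alone was counted, at 132 and 140.2 CPM in control and 31.5 to 71 CPM after knockdown. In bulk RNA, fewer cells of a kind and less RNA per cell cannot be told apart.

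Promoter sequences are shown for the 4 members whose values or motifs are described most closely, as the 250 bases before the transcription start given by RefSeq (GRCh38.p14), on the strand of the gene. ATF1 belongs to the ATF/CREB family, whose consensus site is the palindrome TGACGTCA, set in capitals where present. SEMA5A and EFNB2 had the largest change in either direction among members at 10 CPM or more in every library, and SEMA4C and SEMA3B were the members with that palindrome.
SEMA5A, chr5:9546076-9546325, minus strand: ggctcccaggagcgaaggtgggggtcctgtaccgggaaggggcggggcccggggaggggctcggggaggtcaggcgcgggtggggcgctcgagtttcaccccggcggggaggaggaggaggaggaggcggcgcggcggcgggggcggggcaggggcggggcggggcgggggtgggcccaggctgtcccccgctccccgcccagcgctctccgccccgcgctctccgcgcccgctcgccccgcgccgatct
EFNB2, chr13:106535663-106535912, minus strand: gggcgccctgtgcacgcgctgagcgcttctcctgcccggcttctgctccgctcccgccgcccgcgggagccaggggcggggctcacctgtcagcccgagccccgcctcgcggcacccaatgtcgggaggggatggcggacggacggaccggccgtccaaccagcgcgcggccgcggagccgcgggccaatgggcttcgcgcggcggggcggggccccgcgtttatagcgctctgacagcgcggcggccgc
SEMA4C, chr2:96870081-96870330, minus strand: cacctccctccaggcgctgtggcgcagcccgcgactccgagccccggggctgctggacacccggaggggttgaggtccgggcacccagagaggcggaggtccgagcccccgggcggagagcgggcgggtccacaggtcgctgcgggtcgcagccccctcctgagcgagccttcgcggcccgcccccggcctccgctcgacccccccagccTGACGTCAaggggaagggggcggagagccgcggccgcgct
SEMA3B, chr3:50259976-50260225, plus strand: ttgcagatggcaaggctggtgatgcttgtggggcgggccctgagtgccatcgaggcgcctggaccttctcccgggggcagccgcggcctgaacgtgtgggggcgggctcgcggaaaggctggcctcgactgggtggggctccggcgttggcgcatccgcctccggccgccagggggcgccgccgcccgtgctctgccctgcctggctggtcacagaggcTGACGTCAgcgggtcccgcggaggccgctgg
The palindrome lies 40 bases before the RefSeq start of SEMA4C, in a window that falls in an intron of the GENCODE gene, and 31 bases before 1 of the RefSeq starts of SEMA3B, in a window 7333 bases upstream of the GENCODE gene. The SEMA5A window overlaps an exon of SNHG18, a lncRNA gene, and neither it nor the EFNB2 window holds a searched motif.

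Promoters of 300 bases (250 before and 50 after the start) were listed for 34 of the 38 members. TGACGTCA was present in 3.77% of 53 member promoters, 2.74% of 16397 promoters of the counted genes and 1.85% of all 35116 promoters. Its shorter form TGACG, which the palindrome contains on both strands, was present in 22.6% of member promoters and 31.4% of those of the counted genes. The AP1 site TGAGTCA, read on both strands, was found in 0 of the 53 member promoters and in 3.46% of those of the counted genes. The broader pattern TGANNTCA, which includes the palindrome, was present in 5.66% and 8.65%. A match to these letters is a description of the window and not evidence of binding.

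Knockdown of EA1 was accompanied by higher levels of several semaphorins and most plexins and by lower levels of the B-type ephrins, the slits and netrin 4. Log2FC is given as control over knockdown, so that a positive value means higher expression in control. Of the 38 members, 32 passed the filter on low counts and entered the quasi-likelihood F test of edgeR, fitted to 14571 genes, with p values adjusted by Benjamini-Hochberg over all of these and calls made under 0.05. With EA1 siRNA 1, 6 members were higher in control, where 20.3% of all genes tested were, and 15 were lower, where 19.9% were. With EA1 siRNA 2, 8 were higher against a background of 18.2%, and 12 were lower against 18.5%. The median log2FC of the 32 members tested was -0.53 for EA1 siRNA 1 and -0.30 for EA1 siRNA 2, beside -0.02 and -0.00 over all genes tested. Both comparisons use the same 2 control libraries, so that they are not independent of each other.

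Both EA1 siRNAs gave the same call, with the control libraries on one side of every knockdown library, for 17 members. EFNB1, EFNB2, NTN4, SEMA4C, SLIT2 and SLIT3 were the 6 above knockdown, where 15.1% of all genes tested were. NRP2, PLXNA1, PLXNA4, PLXNB3, PLXNC1, PLXND1, SEMA3C, SEMA4F, SEMA4G, SEMA5A and SEMA6A were the 11 below it, where 14.8% were. The plot of levels by library shows all 38 members.

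**Figure D1:**
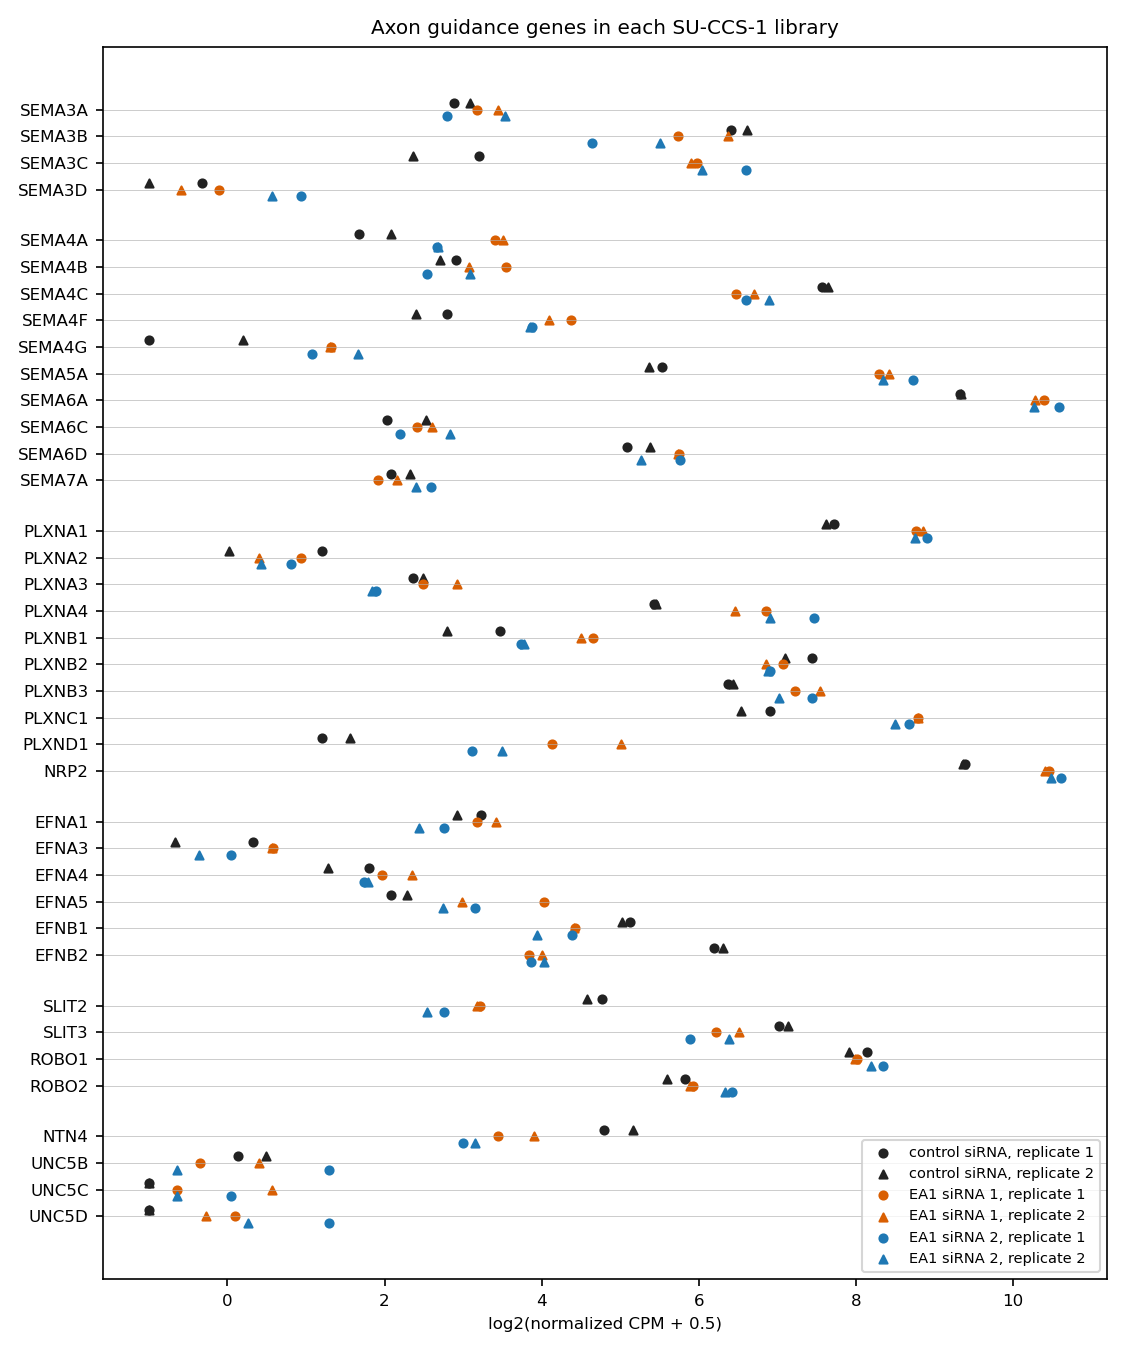
Level of each of the 38 members in each of the 6 libraries, as log2 of normalized CPM with an offset of 0.5, ordered by role. Color marks the siRNA and the symbol the replicate, and SEMA5A lies at 45.7 and 40.9 CPM in control and at 313 to 425 CPM in the 4 knockdown libraries.

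Semaphorins, the ligands of plexins, changed in both directions. Of the 10 membrane-bound members of classes 4 to 7, all were tested, and in control 1 was higher and 6 were lower with EA1 siRNA 1, while 1 was higher and 4 were lower with EA1 siRNA 2, beside the shares of 18.2% to 20.3% of all genes given above for each direction. SEMA5A, a transmembrane semaphorin with thrombospondin repeats, was at 45.7 and 40.9 CPM in control, 313 and 341 CPM with EA1 siRNA 1, and 425 and 326 CPM with EA1 siRNA 2. Every knockdown library lay far above both control libraries. Its log2FC was -2.92 (SE 0.14, adjusted p = 1.66e-07) with EA1 siRNA 1 and -3.12 (SE 0.14, adjusted p = 1.91e-07) with EA1 siRNA 2, or 7.56-fold and 8.68-fold higher after knockdown. The gene lies on the minus strand at chr5:9035033-9546075 (hg38).

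SEMA6A, a transmembrane semaphorin that binds A-type plexins, had the highest level per length of all members. Its levels were 642 and 645 CPM in control, 1346 and 1240 CPM with EA1 siRNA 1, and 1539 and 1233 CPM with EA1 siRNA 2. The knockdown libraries lay 2.01-fold and 2.15-fold above control on average and did not overlap it, with log2FC -1.01 (SE 0.13, adjusted p = 7.22e-05) and -1.11 (SE 0.13, adjusted p = 4.61e-05). SEMA4F, a class 4 membrane semaphorin, was low, at 6.44 and 4.76 CPM in control, 20.2 and 16.6 CPM with EA1 siRNA 1, and 14.2 and 13.9 CPM with EA1 siRNA 2. Its groups did not overlap, and it rose after knockdown by log2FC -1.73 (SE 0.24, adjusted p = 0.000151) and -1.34 (SE 0.24, adjusted p = 0.00124).

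SEMA4G, another class 4 member, was close to the floor, with 0 and 5 counts in control, 14 and 12 counts with EA1 siRNA 1, and 9 and 19 counts with EA1 siRNA 2. Its log2FC was -2.48 (adjusted p = 0.0356) and -2.60 (adjusted p = 0.0300), and without control replicate 1 it was -1.60 (adjusted p = 0.182) and -1.72 (adjusted p = 0.157). Without control replicate 2, control was at 0 counts and no fold is given. Under DESeq2 the adjusted p was 0.0713 and 0.0616. Of its exon length, 22.9% overlaps MRPL43 on the opposite strand, whose counts were 210 to 348, and since the use of strand in counting is not stated, reads of the overlap cannot be assigned to either gene.

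SEMA4C, a ligand of plexin B2, was the semaphorin called higher in control with both EA1 siRNAs. Its levels were 189.8 and 199.8 CPM in control, 88.2 and 104 CPM with EA1 siRNA 1, and 97 and 118 CPM with EA1 siRNA 2. Both control libraries stood above all 4 knockdown libraries, with log2FC 1.02 (SE 0.12, adjusted p = 5.45e-05) and 0.86 (SE 0.12, adjusted p = 0.000236). The change ran opposite to that of SEMA4F and SEMA4G, of the same class. The gene lies at chr2:96859718-96870757 (hg38, minus strand).

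SEMA4A and SEMA6D were called with EA1 siRNA 1 alone. SEMA4A, a class 4 member that acts on immune and endothelial cells, was at 2.69 and 3.73 CPM in control, 10.1 and 10.9 CPM with EA1 siRNA 1, and 5.87 and 5.9 CPM with EA1 siRNA 2. Its log2FC was -1.69 (SE 0.30, adjusted p = 0.00100) and -0.86 (SE 0.32, adjusted p = 0.0545, and 0.0462 with the replicate number as a block), and the control libraries were below all others in both comparisons. SEMA6D, a ligand of plexin A1, overlapped between control (33.5 and 41 CPM) and EA1 siRNA 2 (53.9 and 37.8 CPM), and its log2FC of -0.51 with EA1 siRNA 1 (SE 0.17, adjusted p = 0.0337) was not called without control replicate 1 (adjusted p = 0.209), without either EA1 siRNA 1 library or under DESeq2 (adjusted p = 0.0778). With EA1 siRNA 2 its log2FC was -0.29 (SE 0.17, not called), and -0.50 (adjusted p = 0.023) without EA1 siRNA 2 replicate 2. SEMA4B, SEMA6C and SEMA7A, the last a membrane-anchored ligand of plexin C1, were called in neither comparison, with log2FC between -0.56 and 0.20.

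The secreted class 3 semaphorins signal through complexes of a neuropilin and a plexin, and 3 of the 4 counted were tested. SEMA3C, which guides cardiac neural crest cells, was at 8.68 and 4.63 CPM in control, 62.3 and 59.4 CPM with EA1 siRNA 1, and 96.5 and 65.6 CPM with EA1 siRNA 2. All knockdown libraries were several times above control, and the log2FC was -3.21 (SE 0.26, adjusted p = 2.96e-06) and -3.62 (SE 0.25, adjusted p = 1.54e-06). SEMA3B, a tumor suppressor candidate of the short arm of chromosome 3, went the other way and was called with EA1 siRNA 2 alone. It was at 84.7 and 97.7 CPM in control, 53 and 82.5 CPM with EA1 siRNA 1, and 24.4 and 44.8 CPM with EA1 siRNA 2. Both control libraries lay above all 4 knockdown libraries, narrowly so for EA1 siRNA 1 replicate 2. The log2FC was 0.43 (SE 0.23, adjusted p = 0.165, and 0.0133 with the replicate block) with EA1 siRNA 1 and 1.38 (SE 0.25, adjusted p = 0.00111) with EA1 siRNA 2. The replicates of each EA1 siRNA differed widely, and the difference between the EA1 siRNAs was 0.95 (SE 0.25, adjusted p = 0.0802), and was called with the replicate block (0.97, adjusted p = 0.00217). SEMA3A, the archetypal repulsive semaphorin, was at 6.41 to 11.1 CPM in all libraries, with log2FC -0.34 (SE 0.30, adjusted p = 0.404) and -0.25 (95% interval -0.92 to 0.42). SEMA3D did not pass the filter, with at most 1.42 CPM.

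**Figure D2:**
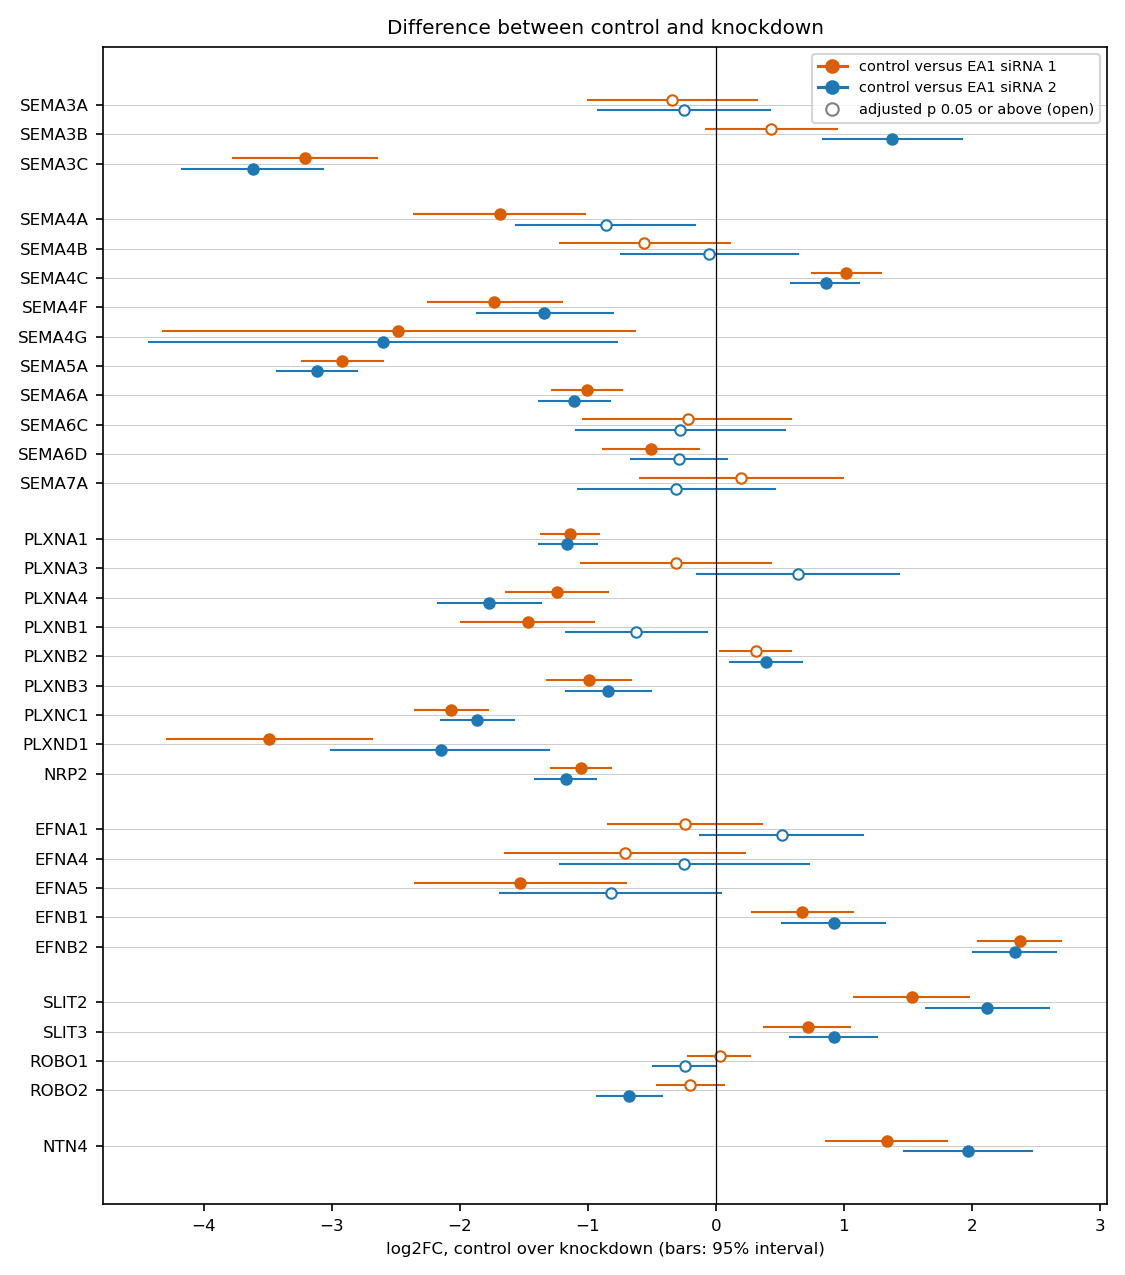
Log2FC of control over knockdown for the 32 members tested, with 95% intervals, for EA1 siRNA 1 and EA1 siRNA 2. Filled points passed an adjusted p of 0.05, and the intervals of SEMA5A (-2.92 and -3.12) and EFNB2 (2.38 and 2.34) lie on opposite sides of 0.

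Most plexins, the receptors of semaphorins, were lower in control. Of 9 plexins and NRP2, 9 genes were tested. In control, 7 were lower and 0 higher with EA1 siRNA 1, where 19.9% and 20.3% of all genes tested were. For EA1 siRNA 2, 6 were lower and 1 higher, where 18.5% and 18.2% of all genes tested were. PLXNC1, the receptor of SEMA7A, was at 119 and 92.2 CPM in control, 442 and 441 CPM with EA1 siRNA 1, and 408 and 361 CPM with EA1 siRNA 2. Its knockdown libraries did not approach the control libraries, with log2FC -2.07 (SE 0.13, adjusted p = 6.70e-07) and -1.87 (SE 0.13, adjusted p = 1.53e-06). Of its exon length, 1.76% overlaps CEP83 on the opposite strand.

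The A-type plexins PLXNA1 and PLXNA4 are signalling partners of the neuropilins. PLXNA1 was at 210.3 and 197 CPM in control, 436 and 462 CPM with EA1 siRNA 1, and 477 and 432 CPM with EA1 siRNA 2. PLXNA4 was at 42.5 and 43.5 CPM in control, 115 and 87.6 CPM with EA1 siRNA 1, and 176 and 119 CPM with EA1 siRNA 2. Both genes rose with both siRNAs and without overlap. The log2FC of PLXNA1 was -1.14 (SE 0.10, adjusted p = 7.96e-06) and -1.16 (SE 0.10, adjusted p = 8.73e-06), and that of PLXNA4 was -1.24 (SE 0.18, adjusted p = 0.000243) and -1.77 (SE 0.18, adjusted p = 2.34e-05). Between the EA1 siRNAs PLXNA4 differed by -0.53 (SE 0.17, adjusted p = 0.142), which was called with the replicate block (adjusted p = 0.0207). PLXNA3 was at 3.09 to 7.08 CPM and was not called, and PLXNA2, with at most 1.8 CPM, did not pass the filter.

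NRP2, a neuropilin that binds class 3 semaphorins and VEGF-C, was the second most abundant member per length. It was at 669 and 661 CPM in control, 1402 and 1355 CPM with EA1 siRNA 1, and 1569 and 1433 CPM with EA1 siRNA 2. The control libraries differed from each other by little beside the gap to knockdown, with log2FC -1.05 (SE 0.11, adjusted p = 1.67e-05) and -1.17 (SE 0.11, adjusted p = 1.00e-05).

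The B-type plexins did not move together. PLXNB3, a receptor of SEMA5A, was at 82.3 and 86.3 CPM in control, 149 and 186 CPM with EA1 siRNA 1, and 174 and 129 CPM with EA1 siRNA 2. It rose with both, with log2FC -0.99 (SE 0.15, adjusted p = 0.000281) and -0.84 (SE 0.15, adjusted p = 0.00106). Of its exon length 20.4% is shared with SRPK3 on the same strand, which had 6 to 10 counts. PLXNB2, the receptor of SEMA4C, was at 173 and 136 CPM in control, 134 and 115 CPM with EA1 siRNA 1, and 119 and 117 CPM with EA1 siRNA 2. It had log2FC 0.31 (SE 0.13, adjusted p = 0.0722, and 0.0236 with the replicate block) and 0.39 (SE 0.13, adjusted p = 0.0327), and the second was 0.20 (adjusted p = 0.332) without control replicate 1. PLXNB1, a receptor of SEMA4D, was at 10.6 and 6.43 CPM in control, 24.6 and 22.2 CPM with EA1 siRNA 1, and 12.8 and 13.2 CPM with EA1 siRNA 2. It rose with EA1 siRNA 1 by log2FC -1.47 (SE 0.24, adjusted p = 0.000485), and with EA1 siRNA 2 its value was -0.62 (SE 0.25, adjusted p = 0.0728, and 0.0388 with the replicate block). The difference between the EA1 siRNAs was 0.85 (SE 0.23, adjusted p = 0.0857), and was called with the block (adjusted p = 0.0308).

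PLXND1, the receptor of SEMA3E, was nearly silent in control. It was at 1.8 and 2.44 CPM in control, 17.1 and 31.6 CPM with EA1 siRNA 1, and 8.19 and 10.8 CPM with EA1 siRNA 2. The 3 conditions did not overlap. The log2FC was -3.49 (SE 0.36, adjusted p = 1.91e-05) and -2.15 (SE 0.39, adjusted p = 0.00121), the largest of any plexin in each comparison. The difference between the EA1 siRNAs, 1.34 (SE 0.30, adjusted p = 0.0450) with EA1 siRNA 1 higher, was called for PLXND1 alone of the 32 members, where 2.24% of all genes tested were. With the replicate block 5 members were called between the EA1 siRNAs, PLXND1 among them (adjusted p = 0.00319). At an unadjusted p under 0.05, 11 members differed between the EA1 siRNAs, where 17% of all genes tested did. DESeq2 called 0 members, but it gave PLXND1 no adjusted p in that comparison, so it did not test that call. The call on PLXND1 was lost without control replicate 1 (adjusted p = 0.0606), control replicate 2 (0.0552), EA1 siRNA 2 replicate 1 (0.0635) or EA1 siRNA 1 replicate 2, where the difference was 0.84 (adjusted p = 0.456).

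**Figure D3:**
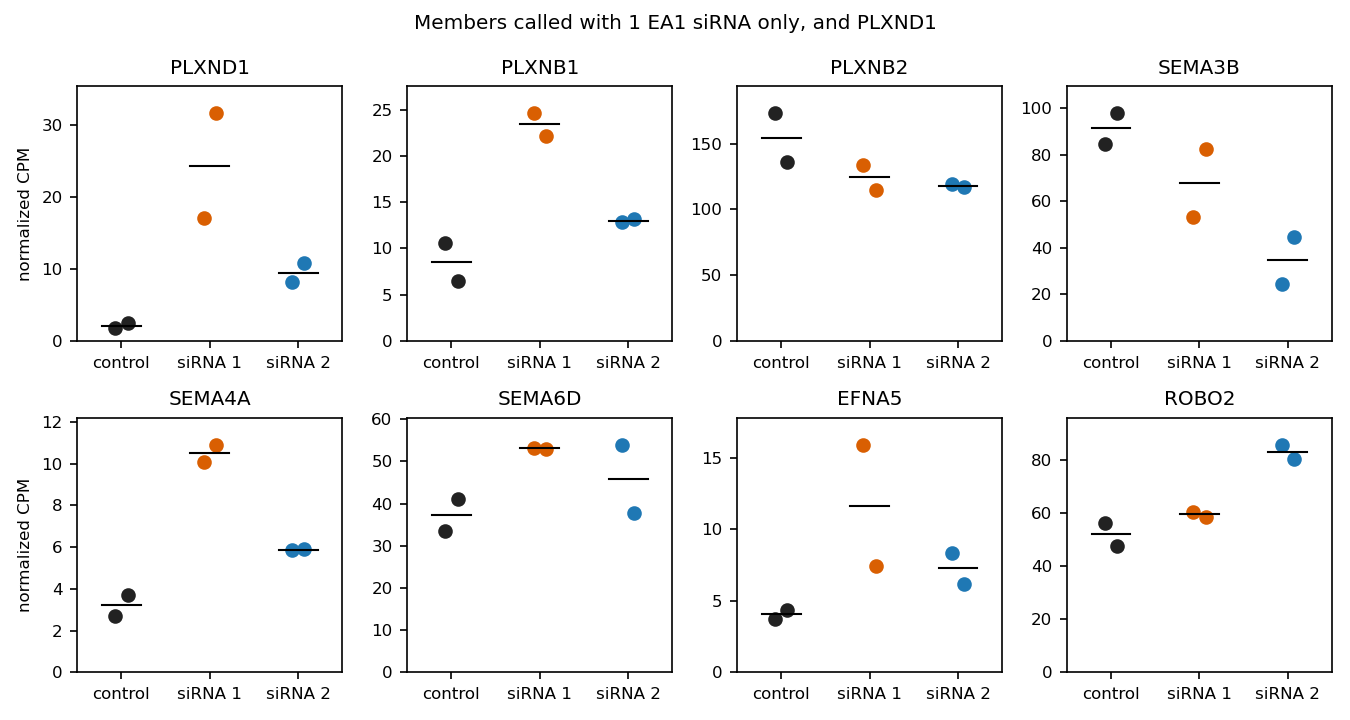
Levels of the 8 members that were called with a single EA1 siRNA or differed between the EA1 siRNAs, in CPM per library with group means. PLXND1 lies at 17.1 and 31.6 CPM with EA1 siRNA 1 and at 8.19 and 10.8 CPM with EA1 siRNA 2.

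The B-type ephrins, transmembrane ligands of EphB receptors and, for EFNB2, a marker of arterial endothelium, fell after knockdown. EFNB2 was at 72.7 and 78.9 CPM in control, 13.8 and 15.5 CPM with EA1 siRNA 1, and 14.1 and 15.9 CPM with EA1 siRNA 2. The knockdown libraries of both EA1 siRNAs lay at almost the same level, with log2FC 2.38 (SE 0.15, adjusted p = 6.61e-07) and 2.34 (SE 0.15, adjusted p = 8.83e-07), or 5.19-fold and 5.05-fold higher in control. An unnamed lncRNA gene on the opposite strand covers 36.4% of its exon length and was counted separately, with 0 counts in both control libraries and 0 to 7 after knockdown. EFNB1 was at 34.4 and 32.1 CPM in control, 20.9 and 20.7 CPM with EA1 siRNA 1, and 20.5 and 14.9 CPM with EA1 siRNA 2. Its log2FC was 0.67 (SE 0.18, adjusted p = 0.0103) and 0.92 (SE 0.18, adjusted p = 0.00208), and the first was not called without control replicate 1 (adjusted p = 0.0564), EA1 siRNA 1 replicate 1 (0.0615) or EA1 siRNA 1 replicate 2 (0.053).

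The A-type ephrins, which are held to the membrane by a lipid anchor, were low. EFNA5 was at 3.74 and 4.37 CPM in control, 15.9 and 7.41 CPM with EA1 siRNA 1, and 8.37 and 6.18 CPM with EA1 siRNA 2. Control lay below knockdown throughout, but the value of -1.53 (SE 0.38, adjusted p = 0.00705) with EA1 siRNA 1 rested on 1 library, and without EA1 siRNA 1 replicate 1 it was -0.86 (adjusted p = 0.149). EFNA1, at 4.91 to 10.2 CPM, and EFNA4, at 1.93 to 4.61 CPM, were called in neither comparison. EFNA3 did not pass the filter, at 0.129 to 0.995 CPM, and shares 43.9% of its exon length with a readthrough gene that joins it to EFNA4.

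The secreted slits and netrin 4 were higher in control, and the ROBO receptors of the slits were not. SLIT2 was at 26.8 and 23.4 CPM in control, 8.82 and 8.56 CPM with EA1 siRNA 1, and 6.23 and 5.33 CPM with EA1 siRNA 2. SLIT3 was at 129.9 and 140.4 CPM in control, 73.7 and 91.1 CPM with EA1 siRNA 1, and 58.9 and 83 CPM with EA1 siRNA 2. Neither gene overlapped between control and knockdown. The log2FC of SLIT2 was 1.53 (SE 0.21, adjusted p = 0.000126) and 2.12 (SE 0.22, adjusted p = 2.31e-05), and that of SLIT3 was 0.72 (SE 0.15, adjusted p = 0.00298) and 0.92 (SE 0.15, adjusted p = 0.000718).

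ROBO1, the more abundant receptor, was at 282 and 239.5 CPM in control, 259 and 253 CPM with EA1 siRNA 1, and 326 and 291 CPM with EA1 siRNA 2. Its log2FC of 0.03 (95% interval -0.22 to 0.27) with EA1 siRNA 1 and -0.24 (SE 0.11, adjusted p = 0.111) with EA1 siRNA 2 missed the threshold. ROBO2 was at 56.1 and 47.7 CPM in control, 60.2 and 58.6 CPM with EA1 siRNA 1, and 85.6 and 80.2 CPM with EA1 siRNA 2. It rose with EA1 siRNA 2 by log2FC -0.68 (SE 0.12, adjusted p = 0.000911), beside -0.20 (SE 0.12, adjusted p = 0.215) with EA1 siRNA 1, and the difference between the EA1 siRNAs was -0.48 (SE 0.12, adjusted p = 0.0609, and 0.0198 with the replicate block).

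NTN4, a netrin of basement membranes that binds laminin, was at 27.2 and 35.2 CPM in control, 10.4 and 14.5 CPM with EA1 siRNA 1, and 7.48 and 8.42 CPM with EA1 siRNA 2. Control stood above all knockdown libraries, with log2FC 1.34 (SE 0.22, adjusted p = 0.000466) and 1.97 (SE 0.23, adjusted p = 5.30e-05). UNC5B, UNC5C and UNC5D, receptors of netrins, did not pass the filter. UNC5B was at 0.14 to 1.96 CPM. UNC5C and UNC5D had 0 counts in both control libraries and reached 0.988 and 1.96 CPM after knockdown.

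Per length of exon, as CPM per kilobase (RPKM), the members highest in control were SEMA6A at 58.9 and 59.1, NRP2 at 48.2 and 47.6, SEMA4C at 30.3 and 31.9, ROBO1 at 25.6 and 21.7, and PLXNB2 at 23.9 and 18.7. SEMA6A, NRP2 and SEMA4C did not overlap with their neighbors in that order, whereas ROBO1 and PLXNB2 overlapped. The first and second places stayed with SEMA6A and NRP2 after knockdown with each EA1 siRNA. PLXNC1 moved from rank 10 to rank 3 with EA1 siRNA 1 and 4 with EA1 siRNA 2, SEMA5A from rank 16 to rank 5 with both, and EFNB2 from rank 8 to rank 20 and 17. SEMA4C moved from rank 3 to rank 9 and 8.

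The summed RPKM of the 9 plexins was 70.5 and 61.8 in control, 134 and 139 RPKM with EA1 siRNA 1, and 138 and 119 RPKM with EA1 siRNA 2. PLXNB2 held 33.8% and 30.3% of that sum in control and 11.4% to 13.7% in the knockdown libraries. A share also falls when other genes of the sum rise, and PLXNB2 itself had log2FC 0.31 (not called) and 0.39. PLXNC1 held 16.7% and 14.9% in control and 29.6% to 32.8% after knockdown. With EA1 siRNA 2 the largest plexin share was that of PLXNA1, at 30.9% and 32.3%. The summed RPKM of the 14 semaphorins was 118 and 122 in control, 198 and 197 RPKM with EA1 siRNA 1, and 225 and 189.8 RPKM with EA1 siRNA 2. SEMA4C held 25.7% and 26.1% of it in control and 6.89% to 9.91% after knockdown, while SEMA5A went from 3.15% and 2.72% to 12.8% to 15.4%. SEMA6A held the largest share in every library, at 50% and 48.4% in control and 57.7% to 62.8% after knockdown.

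**Figure D4:**
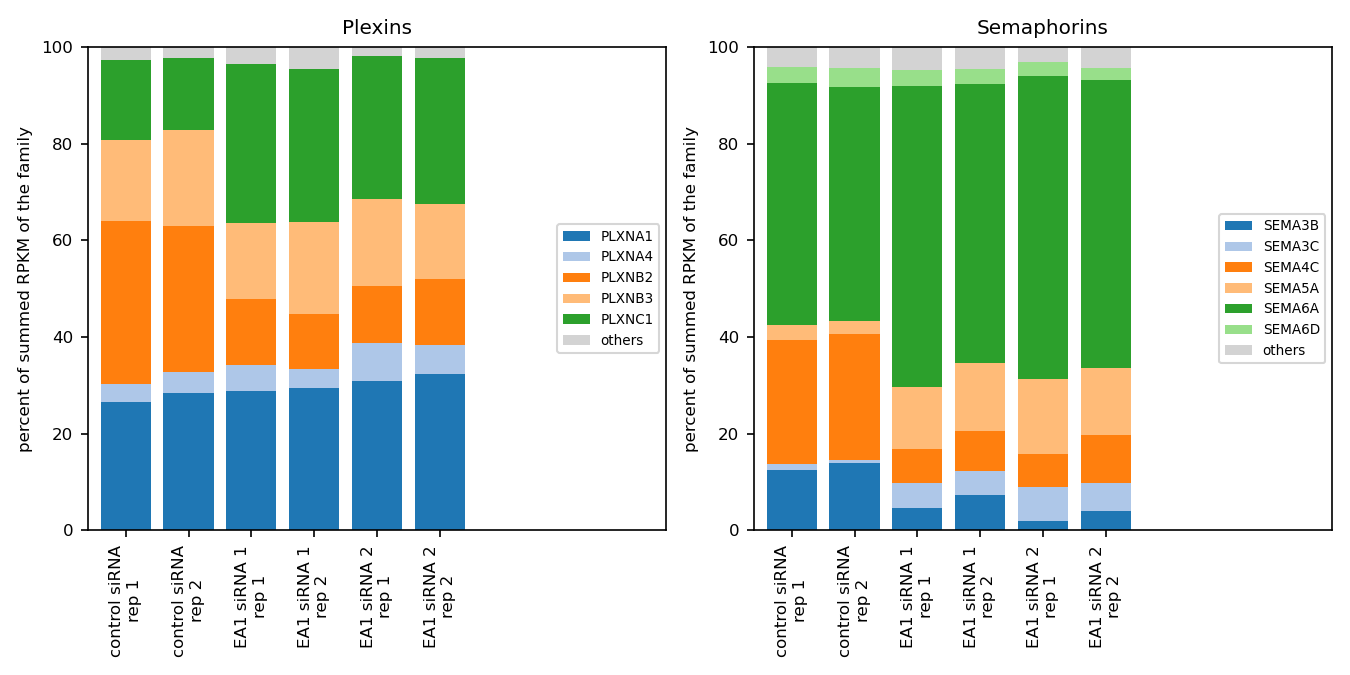
Share of each gene in the summed RPKM of the plexins (left) and of the semaphorins (right) in each library, in percent. PLXNC1 takes 16.7% and 14.9% of the plexin sum in control and 29.6% to 32.8% after knockdown, and SEMA4C takes 25.7% and 26.1% of the semaphorin sum in control and 6.89% to 9.91% after knockdown.

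The receptors of the ephrins and the downstream genes were given by lists written from general knowledge, with earlier results of these data known. Of 14 Eph receptors, 10 were tested, with 3 higher and 4 lower in control with EA1 siRNA 1, and 3 higher and 3 lower with EA1 siRNA 2. Of all genes tested, 20.3% were higher and 19.9% lower with the first, beside 18.2% and 18.5% with the second. EPHA2, a receptor of A-type ephrins, was at 45.7 and 33 CPM in control, 3.98 and 3.13 CPM with EA1 siRNA 1, and 5.34 and 1.4 CPM with EA1 siRNA 2. It fell with each, with log2FC 3.45 (SE 0.38, adjusted p = 2.66e-05) and 3.61 (SE 0.39, adjusted p = 3.00e-05). EPHA4 (log2FC 1.73 and 1.41) and EPHB4, the receptor of EFNB2 on venous endothelium (0.95 and 1.13), were higher in control as well. EPHA8 (-2.15 and -2.27) and EPHA10 (-1.67 and -1.72) were lower. Both rest on few control counts, 5 and 8 for EPHA8 and 9 and 24 for EPHA10.

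Of 31 other guidance ligands and receptors, 16 were tested, and 10 were lower and 0 higher in control with EA1 siRNA 1, beside 7 lower and 2 higher with EA1 siRNA 2, against all-gene shares of 19.9% and 20.3%, and of 18.5% and 18.2%. Among the genes called with both EA1 siRNAs, the largest differences by the mean of both were those of CNTN1, a contactin adhesion molecule of axons (log2FC -4.31 and -4.06), FLRT3, a ligand of UNC5 receptors (-2.54 and -2.51), and MET, the hepatocyte growth factor receptor that couples to B-type plexins (-1.43 and -1.50). CNTN1 had few counts in control, 12 and 9. NEO1, the netrin and repulsive guidance molecule receptor, was also lower in control (-0.95 and -0.91).

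Of 64 intracellular effectors, 53 were tested, with 8 higher and 18 lower in control with EA1 siRNA 1, and 5 higher and 18 lower with EA1 siRNA 2, where 20.3% of all genes were higher and 19.9% lower with the first, and 18.2% and 18.5% with the second. Among those called with both, ordered by the mean of both log2FC, SRGAP3, a GTPase-activating protein downstream of ROBO receptors (log2FC 2.85 and 2.52), and RRAS2, a small GTPase of the R-Ras group on which plexins act (2.36 and 2.07), led the genes higher in control, followed by PTK2, the focal adhesion kinase (0.65 and 0.84). ABLIM3, an actin-binding LIM protein (-3.52 and -3.01), and DPYSL3, a collapsin response mediator protein (-2.08 and -1.59), were among those lower in control. ABLIM3 was close to the floor in control, with 0 and 7 counts, and its SEs were 0.70 and 0.72. The MICAL oxidoreductases, which take semaphorin signals to actin, were all lower in control with both EA1 siRNAs, MICAL1 at -1.37 and -1.65, MICAL2 at -0.99 and -1.42, and MICAL3 at -0.91 and -0.85, and FARP2, an exchange factor bound to plexins, was at -1.09 and -1.12. Of similarly named genes in the list, MICALL1 was higher in control with both EA1 siRNAs (0.48 and 0.46). FARP1 was higher with EA1 siRNA 1 (0.35) and not called with EA1 siRNA 2 (0.20), and MICALL2 was called with neither (0.64 and 0.55). MICAL1 to MICAL3, MICALL1, MICALL2, FARP1, FARP2 and NEO1 were named after their values were seen. The median log2FC was -0.59 and -0.29 for the Eph receptors, -0.63 and -0.55 for the other ligands and receptors, and -0.11 with each EA1 siRNA for the effectors, beside -0.02 and -0.00 for all genes tested.

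**Figure D5:**
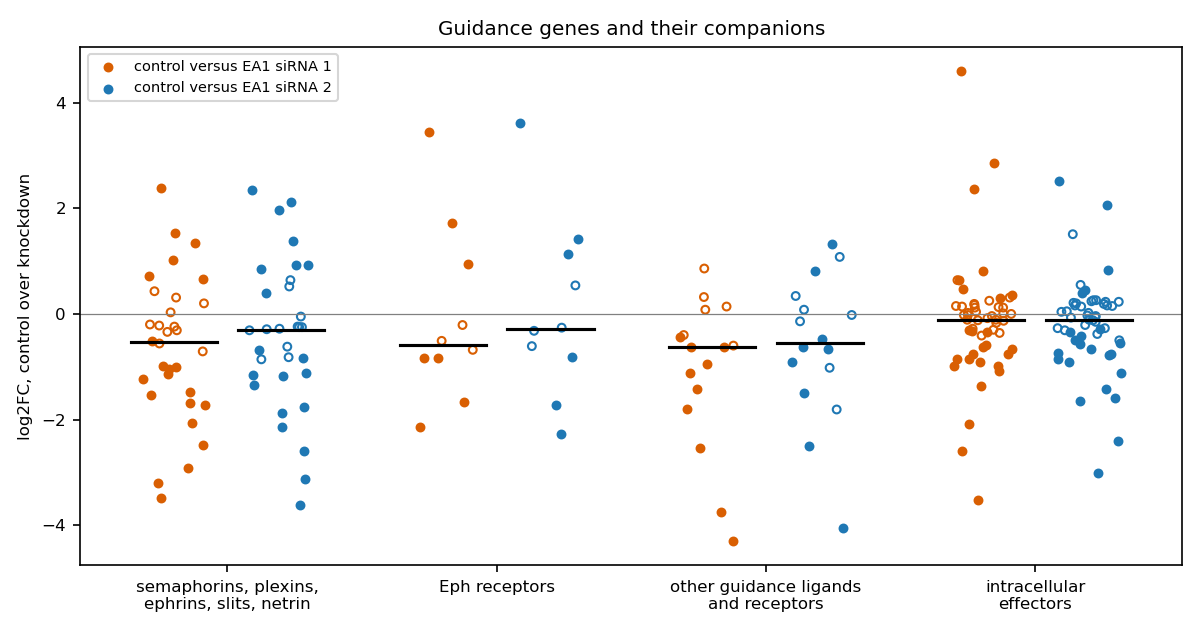
Log2FC of control over knockdown for the tested members and for the tested genes of the 3 related lists, with EA1 siRNA 1 and EA1 siRNA 2 side by side. Filled points passed an adjusted p of 0.05 and black bars are medians, which lie at -0.53 and -0.30 for the members and at -0.11 with each EA1 siRNA for the intracellular effectors.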

How the data were processed

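RNA-seq libraries of SU-CCS-1 cells were grouped by their sample labels. The authors used BWA-MEM for alignment to hg38, counted reads with featureCounts 1.6.3 (per the submitters' processing notes) and deposited raw counts per gene. The annotation, the use of strand and any filter were not given in the sources used here; every gene deposited had at least 6 counts in some library, and 2589 genes carry no symbol, so members without one would be missed. From the deposited counts, edgeR 4.0.16 (R 4.3.3) was run over the 3 conditions with filterByExpr (minimum count 10, minimum total count 15), TMM normalization and the quasi-likelihood test with Benjamini-Hochberg adjustment (threshold 0.05). The code was also run on simulated counts in which few genes changed, the spread was constant and replicates had no shared effect. These settings differ from the libraries here, so that run does not show the error rate of the calls. CPM values were scaled by TMM factors. SEs and 95% intervals came from the F statistic. Coordinates and exon lengths for RPKM came from GENCODE 44, and promoters from RefSeq GRCh38.p14. Members and lists were chosen with earlier results of these data known. Named members were those called with both EA1 siRNAs without overlap, those called between the EA1 siRNAs, the 5 highest by RPKM in control, SEMA4C and SEMA5A; at most 3 related genes were named per list and direction, and 1 of these is not reported here. Members called with a single EA1 siRNA were added after their values were seen. Replicate numbers come from the labels, and same-numbered libraries deviated together from their condition means (r = 0.13, 0.199 and 0.144 over genes for the 3 pairs of conditions), so values with the number as a block are given where they change a call. Alternatives were RLE size factors, DESeq2 1.42.0, no filter, a minimum of 10 counts in every library, a replicate block and each library left out.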

Additional observations from a re-analysis of the deposited data

Results flagged for a closer look

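PLXND1 differed between the EA1 siRNAs, with the same direction against control in both. The log2 difference was 1.34 (SE 0.30, adjusted p = 0.0450 by edgeR's quasi-likelihood test), with 17.1 and 31.6 CPM with EA1 siRNA 1 and 8.19 and 10.8 CPM with EA1 siRNA 2, higher in 2 of 2 libraries. It was the 1 member of 32 called in that comparison, and without EA1 siRNA 1 replicate 2 the difference was 0.84 (adjusted p = 0.456).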

How the results depend on the processing

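The counts of members called between control and each EA1 siRNA stayed within 1.5 times under all 11 alternatives run: with EA1 siRNA 1, 5 to 8 were higher and 12 to 15 lower in control, and with EA1 siRNA 2, 7 to 8 and 11 to 14. Calls over all genes tested, in either direction, were 5850 with EA1 siRNA 1 as reported and 4062 to 6484 in the alternatives. For EA1 siRNA 2 they were 5352 as reported and 3746 to 5936 in the alternatives, which tested 12182 to 18118 genes. The count called between the EA1 siRNAs, 1 as reported, was 2 with no filter, 0 under DESeq2, 5 with the replicate block, and 0 to 5 with 1 library left out. Over all genes tested, 326 were called between the EA1 siRNAs as reported, 853 with the replicate block and 33 to 788 with 1 library left out. DESeq2 called 464 genes between the EA1 siRNAs, and PLXND1 had no adjusted p in that comparison. With the replicate block, the calls gained are those given in the text for SEMA3B, PLXNB2, PLXNB1, SEMA4A, ROBO2 and PLXNA4, and it changed no other call on a member. Of the 17 members called with both EA1 siRNAs, 15 to 17 were called again in each alternative, EFNB1 and SEMA4G being those lost. Signs turned only where no call was made and a library was left out. With EA1 siRNA 1, the values with 1 library left out ran from -0.50 to 0.02 for SEMA6C and from -0.10 to 0.17 for ROBO1, turning without control replicate 1. With EA1 siRNA 2 they ran from -0.55 to 0.25 for SEMA3A, -0.55 to 0.15 for SEMA6C and -0.27 to 0.32 for SEMA4B, turning without EA1 siRNA 2 replicate 2 (SEMA4B also without control replicate 2, at 0.10), from -0.59 to 0.08 for EFNA4 and from -0.50 to 0.00 for SEMA6D. Between the EA1 siRNAs they ran from -0.01 to 0.49 for SEMA6D and from -0.03 to 0.18 for PLXNB2. The cause was not tested. RLE size factors changed no call on a member. At low counts intervals were wide, from -4.32 to -0.63 for SEMA4G with EA1 siRNA 1, and a difference that missed the threshold is not shown to be absent.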
